A study of Mus musculus with 6 samples.

Results

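Glucose transporters and glycolytic enzymes were examined in mouse neutrophils that lack the microRNA miR-223 and in their wild-type counterparts. The members are 10 genes read by 13 probe sets, the sets of short array probes that report a transcript, out of 45101 rows in the deposited table. They were chosen by gene name, as 2 transporters and 8 enzymes of the pathway from glucose to lactate. The rule used no values, but earlier results of these data were known when it was set. The study hybridised total RNA to 6 Affymetrix arrays, 3 for the miR-223 null genotype and 3 for the wild type. Both groups were raised in the same way. Bone marrow progenitors grew for 6 days in SILAC-IMDM medium, made for isotope labelling of proteins, with the growth factors G-CSF and SCF. They then matured for 42 hours without SCF, and live neutrophils were taken with magnetic beads (MACS). The labels give neither the null allele nor strain, age or sex, and leave unsaid if the replicates were separate mice or cultures. Each p-value therefore rests on the spread among these arrays alone, and that spread may be technical. Cells matured in a dish with added cytokine and a rich medium stand in for neutrophils of the animal. Neither the level of miR-223 nor markers of neutrophils and other cell types were analysed here, so the labels were not checked against the cells.

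Glycolysis splits glucose into pyruvate and yields ATP without oxygen. Neutrophils have few mitochondria and draw most of their ATP from it, and they turn much of the pyruvate into lactate. Glucose enters through carriers of the Slc2a family, is trapped by a hexokinase, and passes along a chain of enzymes that most cells express strongly. A microRNA pairs through its seed, bases 2 to 8, with sites in mRNAs and lowers their level or translation. The comparison asks how these mRNAs differ between the null and wild-type groups. The members' mRNAs were not searched for matches to the seed, so whether any is a direct target of miR-223 was not tested.

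Both mature arms of miR-223, encoded on the X chromosome, are shown because the null group is named for this microRNA. Capitals mark the seed. The sequences are from RefSeq (GRCm38.p6, plus strand), at chrX:96242884-96242905 for the 3p arm and chrX:96242842-96242864 for the 5p arm.
miR-223-3p: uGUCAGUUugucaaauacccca
miR-223-5p: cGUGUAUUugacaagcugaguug

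Average signals for transcripts of the glycolytic route lay close to the wild-type level on the null arrays. All 13 probe sets differed by less than 0.25 log2 units, which spans 84.7% to 119% of the wild-type signal, and 7 of the 13 by less than 0.1. These sizes hold for all 6 arrays together: without wild-type 1 the Slc2a1 probe sets differed by -0.32 to -0.44. Some intervals were wide. Without a block, the limma 95% interval ran from 61.6% to 117% of the wild-type signal for Slc2a1 1426600_AT. For Hk2 it ran from 73.4% to 143%, while for 9 of 13 members it stayed within 0.5 log2 units of 0. In the fit without a block, 0 of 13 passed a limma adjusted p of 0.05, where 0.189% of the 27022 probe sets tested passed. At an unadjusted limma p under 0.05 there were 3 of 13 (Hk3, Tpi1 and Ldha), against 10.7% of all tested. In the paired fit, which takes the replicate number of the titles as a block, 1 of 13 passed, Hk3, where 10% of all tested passed. Of all tested, 4.96% passed in the direction of Hk3, higher in null. The median size of the difference was 0.082 log2 units over the members and 0.112 over all probe sets tested. The members' median standard error was smaller too, at 0.109 against 0.125 without a block and 0.060 against 0.096 in the paired fit. The smaller median difference therefore does not show that the members responded less than other probe sets.

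**Figure D1:**
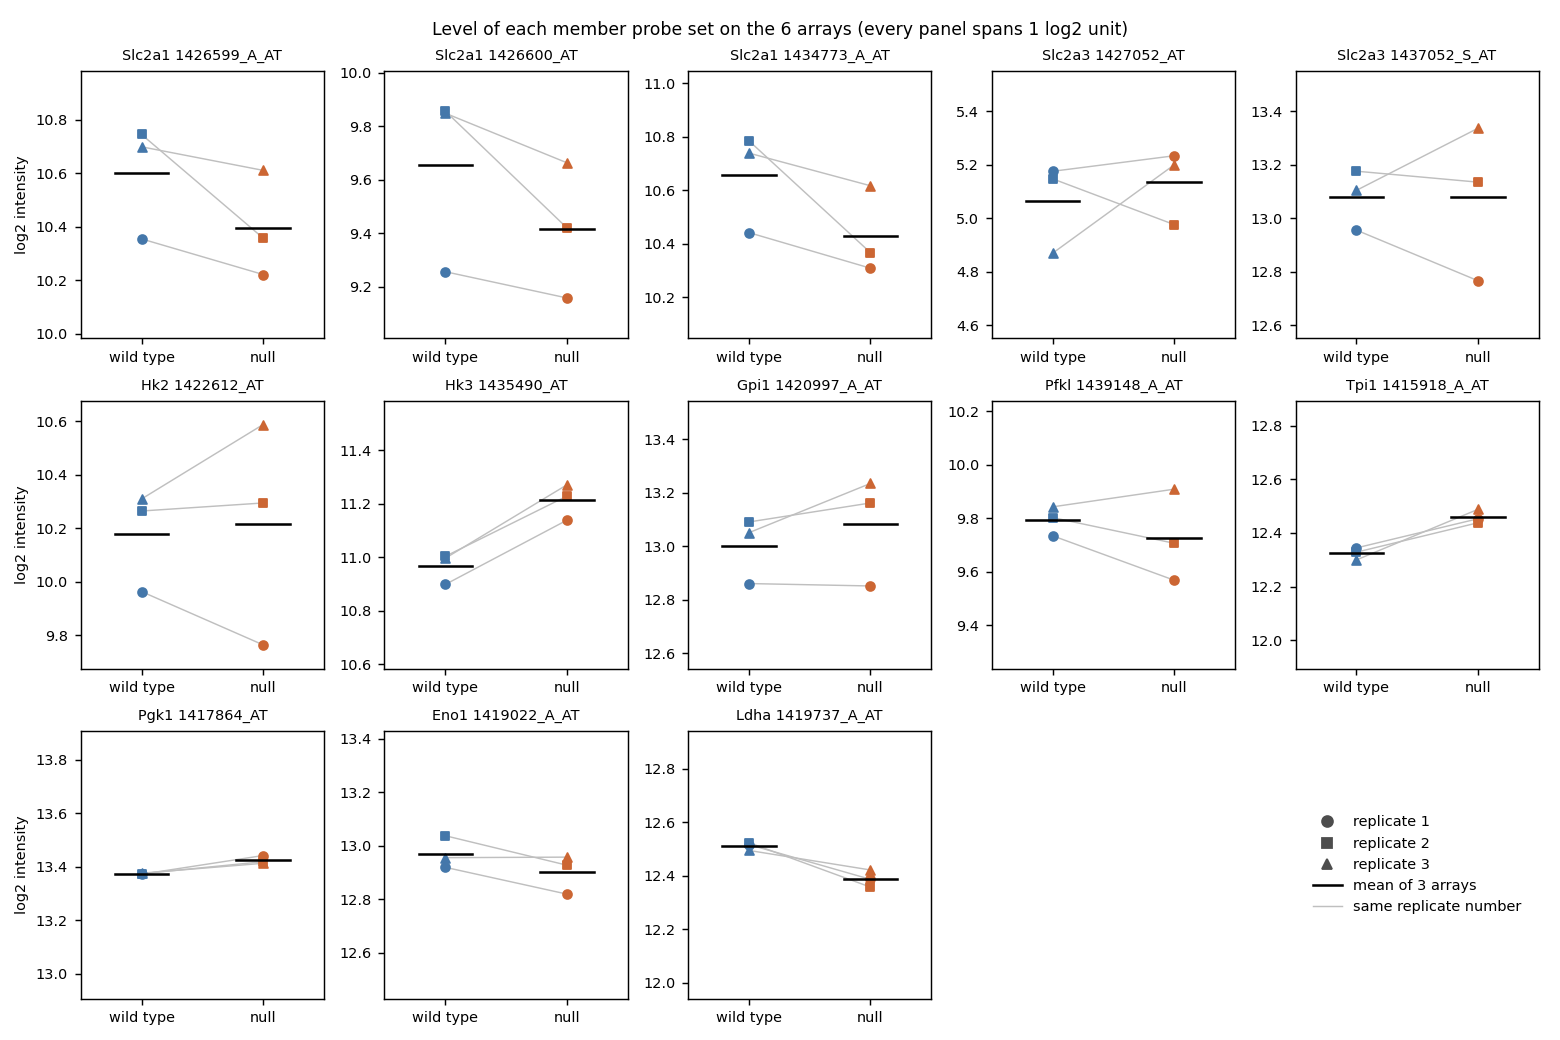
Levels of the 13 probe sets in log2 intensity on the wild-type arrays (blue) and the null arrays (orange); each panel spans 1 log2 unit, the symbol gives the replicate number, grey lines join arrays of the same number and black bars are means of 3 arrays. Null arrays lie wholly above wild-type arrays for Hk3, Tpi1 and Pgk1 and wholly below them for Ldha, and replicate 1 is lowest in both genotypes for Slc2a1, Hk2 and Gpi1, among others.

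**Figure D2:**
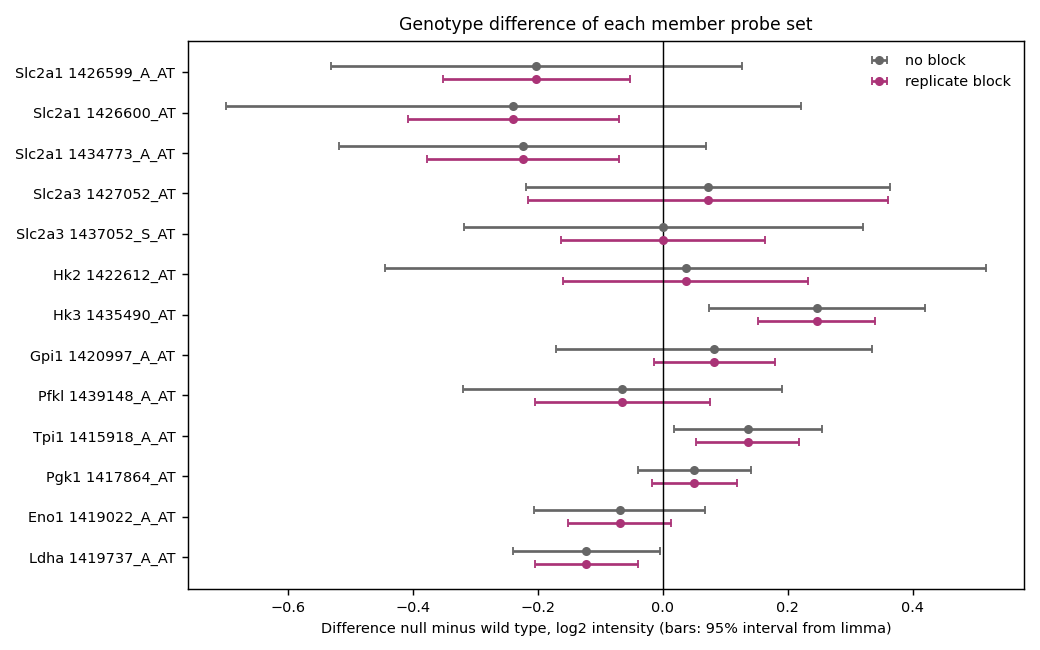
Difference null minus wild type in log2 intensity for each probe set, with 95% intervals from limma without a block (grey) and with the replicate number as a block (purple). The intervals of Hk3 and Tpi1 lie above 0 and that of Ldha below 0 in both fits, and those of the 3 Slc2a1 probe sets lie below 0 in the paired fit alone.

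Promoters are shown for the 4 genes whose probe sets all differed one way in 3 of 3 same-numbered pairs with an unadjusted limma p under 0.05 in the paired fit. Slc2a1 and Ldha were lower in null arrays and Hk3 and Tpi1 higher. Each window holds the 250 bases before the most upstream start that RefSeq gives (GRCm38.p6), read 5′ to 3′ in the direction of the gene. Capitals mark ACGTG or its reverse complement CACGT, a form of the core of sites bound by hypoxia-inducible factor, a known activator of glycolysis genes. The form GCGTG, with its complement CACGC, was not searched for and is not marked. These letters overlap with the E-box CACGTG, bound by Myc and related factors.
Slc2a1 (chr4:119108495-119108744, plus strand): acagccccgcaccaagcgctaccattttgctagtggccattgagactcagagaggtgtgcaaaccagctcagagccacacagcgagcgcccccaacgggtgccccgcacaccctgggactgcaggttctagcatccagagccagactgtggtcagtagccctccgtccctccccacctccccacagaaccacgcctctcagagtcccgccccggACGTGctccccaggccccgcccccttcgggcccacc
Ldha (chr7:46845554-46845803, plus strand): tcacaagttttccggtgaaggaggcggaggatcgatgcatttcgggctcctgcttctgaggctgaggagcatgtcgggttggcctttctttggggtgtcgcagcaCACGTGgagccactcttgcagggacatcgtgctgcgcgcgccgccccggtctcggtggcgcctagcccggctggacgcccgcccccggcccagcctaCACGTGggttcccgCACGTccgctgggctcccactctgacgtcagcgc
Hk3 (chr13:55021386-55021635, minus strand): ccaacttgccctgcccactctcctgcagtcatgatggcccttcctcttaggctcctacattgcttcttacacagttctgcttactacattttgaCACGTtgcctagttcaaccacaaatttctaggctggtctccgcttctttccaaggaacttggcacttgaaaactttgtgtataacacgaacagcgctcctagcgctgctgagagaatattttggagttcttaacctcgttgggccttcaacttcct
Tpi1 (chr6:124814159-124814408, minus strand): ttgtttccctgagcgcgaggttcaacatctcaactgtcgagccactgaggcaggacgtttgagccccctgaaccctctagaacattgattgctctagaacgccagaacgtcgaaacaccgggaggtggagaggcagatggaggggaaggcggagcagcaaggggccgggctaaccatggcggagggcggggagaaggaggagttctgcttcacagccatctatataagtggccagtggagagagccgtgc

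This form of the core was found in the windows of 5 of the 9 member genes with an entry, against 16.5% of the first windows of 27025 genes. Those 5 were Slc2a1, Hk2, Hk3, Pgk1 and Ldha. RefSeq gives 3 windows for Eno1 and 2 for Ldha, and only the first of each was counted. The members were chosen as genes of this pathway, so the count describes that choice and not a response to genotype. In Slc2a1 the match began 36 bases before the start, and in Hk3 156 bases before it. Ldha held the E-box CACGTG at 145 and 48 bases before the start and a further CACGT at 34 bases. No match lay in the window of Tpi1. The GC box GGGCGG or its complement CCGCCC was found in 6 of the 9 and in 33.0% of all first windows. Among the genes shown, Slc2a1 and Ldha (lower in null arrays) and Hk3 (higher) held this form of the core, and Tpi1 (higher) did not. Whether a match bears on these differences was not tested. A match is a description of letters and not of a bound site.

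Slc2a1 encodes Glut1, a carrier that takes up glucose in many cell types at rest. Its 3 probe sets agreed in direction and size. Probe set 1434773_A_AT read 10.31, 10.37 and 10.62 on null arrays 1 to 3 and 10.44, 10.79 and 10.74 on wild-type arrays 1 to 3. The groups overlapped, because wild-type 1 lay among the null arrays, but each null array was lower than the wild-type array of its number. The difference was -0.22 log2 units (SE 0.13 without a block, limma adjusted p = 0.594), or 85.6% of the wild-type signal. Probe set 1426600_AT read 9.16, 9.42 and 9.66 on null arrays and 9.26, 9.86 and 9.85 on wild-type arrays, a difference of -0.24. Probe set 1426599_A_AT read 10.22, 10.36 and 10.61 on null arrays and 10.36, 10.74 and 10.70 on wild-type arrays, a difference of -0.20. These sets too overlapped between the groups and were lower in 3 of 3 pairs.

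Averaged over its probe sets, Slc2a1 read 10.08 ± 0.20 (SD, n = 3) on the null side and 10.30 ± 0.25 (SD, n = 3) on the wild-type side (exact permutation test, two-sided p = 0.3, where 3 against 3 cannot go below 0.1). Within pairs 1, 2 and 3 the average differed by -0.12, -0.41 and -0.13 log2 units. Pair 2 carried the largest difference. The paired fit gave limma adjusted p values of 0.0740 for 1434773_A_AT, 0.0812 for 1426600_AT and 0.0928 for 1426599_A_AT, so none passed. With pair 3 left out 1434773_A_AT passed, at the very edge of the threshold. With pair 2 left out the paired differences of 1434773_A_AT, 1426600_AT and 1426599_A_AT were -0.13, -0.14 and -0.11, and with pair 1 left out -0.27, -0.31 and -0.24. Without a block, the same 3 differences were -0.33, -0.44 and -0.32 without wild-type 1 and -0.16, -0.11 and -0.12 without null 1. The 3 probe sets read 1 transcript in the same RNA and are not independent of one another.

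Slc2a3 encodes Glut3, a carrier with high affinity for glucose that white blood cells use. Its probe sets differed widely in signal. Probe set 1437052_S_AT, of the kind that can read more than 1 transcript, had a mean of 13.08 ± 0.29 (SD, n = 3) across null arrays and of 13.08 ± 0.11 (SD, n = 3) across wild-type ones. It read 12.77, 13.13 and 13.34 on null arrays and 12.96, 13.18 and 13.10 on wild-type arrays. The null arrays held both the lowest and the highest value, and the pair differences of -0.19, -0.04 and 0.23 had no common direction. Its 95% interval ran from 80.2% to 125% of the wild-type signal without a block and from 89.3% to 112% in the paired fit.

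The other Slc2a3 probe set, 1427052_AT, was the dimmest member, with arrays from 4.87 to 5.23. Bacterial control sequences with no mouse transcript averaged 2.77 to 2.86 on the same arrays. The median over all rows was 4.71 to 4.73, so this probe set lay near the middle of each array and not clearly above it. Its difference was 0.07 log2 units (SE 0.13, limma adjusted p = 0.903), with pairs at 0.06, -0.17 and 0.33. Which of the 2 probe sets reports the transcript was not tested, and neither passed in any fit. The change of Slc2a1 relative to Slc2a3 1437052_S_AT was -0.20 to -0.24 log2 units over the 3 Slc2a1 probe sets, lower in 2 of 3 pairs each (exact two-sided permutation p = 0.2, 0.3 and 0.2; adjusted over the 4 ratios compared here, 0.4 each). With 3 arrays a group this test cannot go below 0.1, so it could not have told the transporters apart, and whether they differ in response is not settled by it.

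Hexokinases add the phosphate that holds glucose in the cell. Hk3, the form found chiefly in white blood cells, was the only member that passed any fit of all 6 arrays. Its probe set 1435490_AT read 11.14, 11.23 and 11.27 on null arrays and 10.90, 11.00 and 11.00 on wild-type arrays. The lowest null array lay above the highest wild-type array. The means were 11.21 ± 0.07 (SD, n = 3) and 10.97 ± 0.06 (SD, n = 3), a 1.19-fold difference (0.25 log2 units, 95% interval 105% to 134% of the wild-type signal). The limma adjusted p was 0.297 without a block and 0.0127 in the paired fit (SE 0.07 and 0.04). The pairs differed by 0.24, 0.23 and 0.27, close to one another. The paired call was lost without the intensity trend (limma adjusted p = 0.114, in a fit where 0.707% of all tested passed) and with pair 2 left out (0.0926), while the difference stayed at 0.25 and 0.26 log2 units.

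Hk2, a hexokinase that binds mitochondria and responds to growth signals, varied more between replicates than between genotypes. Probe set 1422612_AT read 9.76, 10.29 and 10.59 on null arrays and 9.96, 10.26 and 10.31 on wild-type arrays. Null 1 was the lowest array and null 3 the highest, and the pairs differed by -0.20, 0.03 and 0.28. The mean difference of 0.04 log2 units (SE 0.21, limma adjusted p = 0.978) had a 95% interval from 73.4% to 143% of the wild-type signal, the widest upward among the members. The paired interval was 89.5% to 117%. Hk3 relative to Hk2 changed by 0.21 log2 units, higher in 2 of 3 pairs (exact two-sided permutation p = 0.7, adjusted over the 4 ratios 0.7), in a test that again cannot go below 0.1.

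The next steps rearrange and commit the sugar. Gpi1 turns glucose 6-phosphate into fructose 6-phosphate, and Pfkl is the liver-type subunit of phosphofructokinase, the committed step. Gpi1 (1420997_A_AT) read 12.85, 13.16 and 13.24 on null arrays and 12.86, 13.09 and 13.05 on wild-type arrays. The replicate 1 arrays of both genotypes were nearly equal and low, and nulls 2 and 3 lay above every wild-type array. Its difference was 0.08 log2 units (SE 0.11, limma adjusted p = 0.863; 0.262 in the paired fit). That value rested on single arrays, falling to 0.0061 when null 3 was omitted and to 0.012 when wild-type 1 was, and reaching 0.20 when null 1 was. Pfkl (1439148_A_AT) read 9.57, 9.71 and 9.91 on null arrays and 9.73, 9.80 and 9.84 on wild-type arrays, with pairs at -0.17, -0.10 and 0.07. The wild-type values fell inside the span of the null values, and the difference was -0.06 (SE 0.11, limma adjusted p = 0.898).

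Further down the pathway, small differences separated the groups for Tpi1, Pgk1 and Ldha, whose arrays lay close together within each genotype. Tpi1, which interconverts the 2 triose phosphates, read 12.45, 12.44 and 12.49 on null arrays and 12.34, 12.33 and 12.30 on wild-type arrays (1415918_A_AT). All null arrays were above all wild-type arrays. The difference was 0.14 log2 units, 110% of the wild-type signal (SE 0.05, limma adjusted p = 0.397; 0.0530 in the paired fit). Pgk1, the kinase that makes the first ATP of the pathway, read 13.44, 13.42 and 13.41 on null arrays and 13.37, 13.37 and 13.38 on wild-type arrays (1417864_AT). Its groups did not overlap either, though the difference was only 0.05 (SE 0.04, limma adjusted p = 0.722; 0.324 in the paired fit).

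Eno1, the enolase that forms phosphoenolpyruvate, read 12.82, 12.93 and 12.96 on null arrays and 12.92, 13.04 and 12.95 on wild-type arrays (1419022_A_AT). The groups overlapped and the difference was -0.07 log2 units (SE 0.06, limma adjusted p = 0.756; 0.269 in the paired fit), and it was -0.028 without null 1 and -0.036 without wild-type 2. Ldha, the lactate dehydrogenase subunit that favours lactate formation, read 12.39, 12.36 and 12.42 on null arrays and 12.52, 12.52 and 12.49 on wild-type arrays (1419737_A_AT). Every null array was below every wild-type array. The difference was -0.12, or 91.8% of the wild-type signal (SE 0.05, limma adjusted p = 0.450; 0.0706 in the paired fit). Gapdh, the dehydrogenase between Tpi1 and Pgk1, is no member but was read by 3 control probe sets, whose differences were -0.02, -0.03 and -0.07 (limma adjusted p from 0.541 to 0.954 without a block and from 0.151 to 0.793 in the paired fit).

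Several of these probe sets read near the top of the scale, where the arrays' highest values were 14.98 to 14.99. Pgk1 lay 1.58 log2 units below that maximum, Slc2a3 1437052_S_AT 1.90, Gpi1 1.94, Eno1 2.05, Ldha 2.53 and Tpi1 2.59. The Gapdh control probe sets were brighter than Pgk1, with arrays from 13.84 to 14.13. Whether brightness narrows their differences and their spread was not tested. Transcripts of Eno1, Pgk1, Tpi1, Ldha and Gapdh also have processed pseudogene copies in the mouse genome, and whether the probes read such copies was not tested.

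Taking direction alone, 3 members (Hk3, Tpi1 and Pgk1) were higher with no overlap between the groups, where 8.12% of all tested probe sets were, and 1 (Ldha) was lower with no overlap, where 8.68% were. In 3 of 3 pairs, the same 3 members were higher, against 21.6% of all tested, and 4 were lower (Ldha and the 3 Slc2a1 probe sets), against 25.0%. In the paired fit 6 of 13 had an unadjusted limma p under 0.05, 2 higher and 4 lower, against 26.2% of all tested. As 3 of those 6 read Slc2a1, they stand for 4 genes of 10. The members did not share a direction: 7 averaged higher and 6 lower in null arrays, where 52.5% of all tested probe sets averaged lower. The 6 include the 3 Slc2a1 probe sets. The 7 include Slc2a3 1437052_S_AT at 0.0008 log2 units, whose sign turned after quantile normalization.

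**Figure D3:**
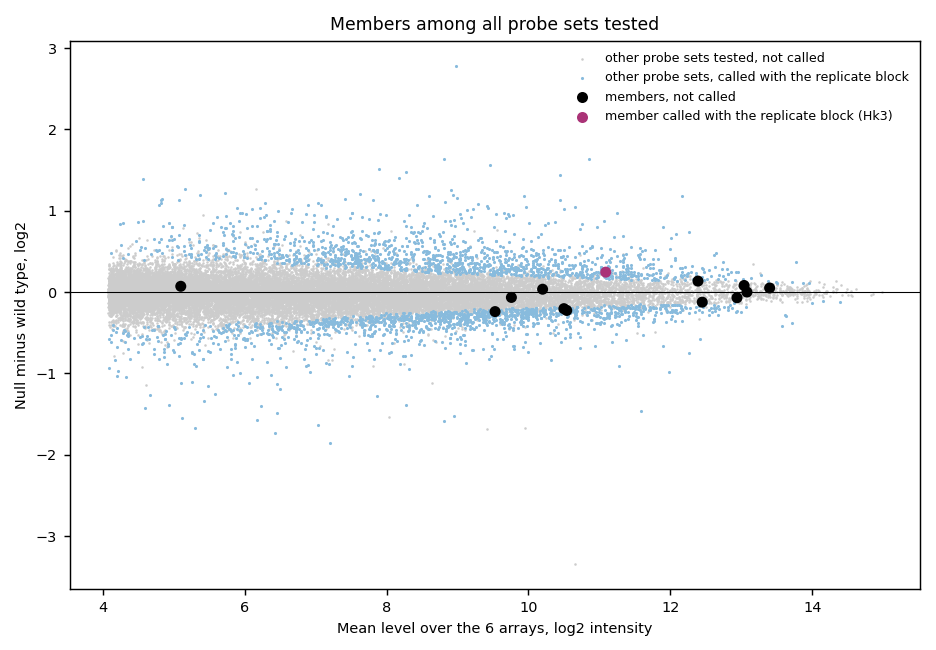
Difference null minus wild type against mean level, both in log2 intensity, for the 27022 probe sets tested; light blue points passed in the paired fit, black and purple points are the 13 members. All members lie within 0.25 log2 units of 0, Hk3 (purple) is the one called, and the dim Slc2a3 probe set is the single member near a level of 5.

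Levels also varied with the replicate number. In the sum of squares over the 6 arrays, the share of the replicate number (3 levels) exceeded that of the genotype (2 levels) for 9 of 13 members. The genotype held the larger share for the other 4, as it did for 29.5% of all tested probe sets, so the members' share was near the background. Per degree of freedom (1 for genotype, 2 for replicate number) the genotype was larger for 6 of 13 members and for 41.5% of all tested. Those 4 were Tpi1 with 92.3%, Ldha with 89.9%, Pgk1 with 88.6% and Hk3 with 85.1%. For Hk2 the replicate number held 86.0% and the genotype 0.469%, and for Gpi1 84.1% and 8.23%.

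Replicate 1 was the low one. Its arrays were below the mean of replicates 2 and 3 in both genotypes for 9 of 13 members, against 35.9% of all tested probe sets, with 3 of the 9 reading Slc2a1. For Hk2 the gap was -0.68 log2 units in null and -0.32 in wild-type arrays. For Slc2a1 1426600_AT it was -0.38 and -0.60, for Slc2a3 1437052_S_AT -0.47 and -0.18, and for Gpi1 -0.35 and -0.21. Tpi1, Pgk1 and Ldha moved by no more than 0.03 in either genotype. The dim Slc2a3 probe set was the only member higher on replicate 1 in both genotypes (0.15 and 0.17). What the replicate number stands for is not given in the sources used here.

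**Figure D4:**
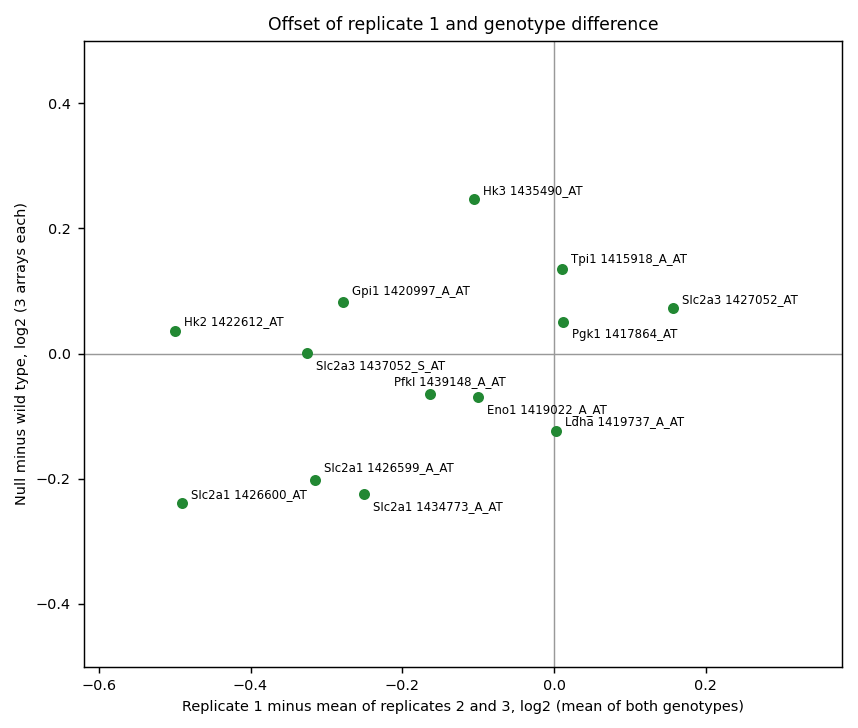
Replicate 1 minus the mean of replicates 2 and 3 (horizontal, log2, mean of both genotypes) against null minus wild type (vertical, log2, 3 arrays each), 1 point per member probe set. Tpi1, Pgk1 and Ldha sit at a replicate offset near 0, whereas Hk2 and the 3 Slc2a1 probe sets lie far to the left with genotype differences of 0.04 and -0.20 to -0.24.

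The precision of these arrays sets what could be seen. The median standard error of the members was 0.109 log2 units without a block and 0.060 in the paired fit, against 0.125 and 0.096 over all tested. For 9 of 13 members the unpaired 95% interval stayed within 0.5 log2 units of 0, and for 8 of 13 the paired interval stayed within 0.25. The paired intervals of the 3 Slc2a1 probe sets, the dim Slc2a3 probe set and Hk3 reached beyond 0.25. A p above the threshold does not show that the genotypes are alike.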

How the data were processed

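The authors deposited 1 table of log2 intensities, with 45101 rows and 6 arrays. The submitters' processing notes name GCOS. How background was corrected, arrays were normalized and probes were summarised is not given in the sources used here. The unit log2 was inferred from the range of values. They were used as deposited, so a difference is one relative to the rest of the array, and a change in total mRNA would not be seen.

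Genotypes and replicate numbers came from the sample titles. After 64 control probe sets were set aside, 27022 probe sets whose mean reached the 40th percentile (4.08) stayed in, among them all 13 members. Null minus wild type was fitted by lmFit and trended eBayes (limma 3.58.1, R 4.3.3), with two-sided p adjusted by Benjamini-Hochberg over all 27022 and called under 0.05. The alternative with the replicate number as a block is called the paired fit. Deviations from the group mean correlated at r = 0.70, 0.30 and 0.48 between same-numbered arrays, all above 0.1, so the numbers were taken as pairs. Within a genotype the 3 deviations sum to 0. The agreement of the replicate 1 arrays therefore pushes arrays 2 and 3 of the 2 genotypes to correlate, whatever their numbers. The values 0.30 and 0.48 are thus no separate support for the pairing. Null 3 with wild-type 2 reached 0.41, so the data alone do not settle how replicates 2 and 3 pair. The code was tested on simulated data.

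The members came with gene names, and they and all lists were chosen with earlier results of these data known. All 13 probe sets were to be named, with up to 3 called genes from each of 6 lists of other sugar metabolism genes. Those lists and 5 lists of cell type markers were not analysed here, because no table used here pairs other probe sets with genes. Sequences are from RefSeq, and 9 of 10 genes had a promoter entry.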

Additional observations from a re-analysis of the deposited data

How the results depend on the processing

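Leaving out 1 array in turn gave 0 to 58 calls among all probe sets, 51 with all arrays. The 0 came without null 2 or wild-type 2, where limma gave 2064 and 1753 at an unadjusted p under 0.05, and it was 3 without null 3 and 1 without wild-type 3. With both replicate 1 arrays left out 1072 passed. The paired fit with the replicate block gave 2703, 2562 after quantile normalization, 191 without the intensity trend, and 2045, 606 and 2319 with pair 1, 2 or 3 left out. The unpaired fits called none of the members tested in any setting run. The paired fit called 1, Hk3, and again 1 after quantile normalization and with pair 1 left out. It called 2 with pair 3 left out (Hk3 and Slc2a1 1434773_A_AT), and 0 without the trend or without pair 2. The block changed no other member's call.

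The direction of Slc2a1 (3 probe sets), Hk3, Gpi1, Tpi1, Pgk1, Eno1 and Ldha held in all 18 alternatives. Without 1 array Hk3 ran from 0.21 to 0.28 log2 units, Gpi1 from 0.006 to 0.197, Slc2a1 1426600_AT from -0.44 to -0.11 and Eno1 from -0.097 to -0.028. It turned for Hk2, which ran from -0.15 to 0.26 when 1 array was left out and was -0.085 in the paired fit without pair 3. Slc2a3 1437052_S_AT was -0.014 after quantile normalization with or without the block, -0.13 to 0.16 without 1 array and -0.11 in the paired fit without pair 3. Slc2a3 1427052_AT ran from -0.025 to 0.15 without 1 array and was -0.057 in the paired fit without pair 3. The filter at the 60th percentile removed it. Pfkl ran from -0.16 to 0.015 without 1 array. The cause was not tested. A pseudocount does not apply to log2 values. Depth is not counted on arrays, and their number limits the precision.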
